A study of Mus musculus with 35 samples.

Results

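The 8 genes described here belong to the signalling route from fibroblast growth factor (FGF) through the kinase ERK: the ligand gene Fgf4, the phosphatase genes Dusp4 and Dusp6, the Sprouty genes Spry2 and Spry4, and the transcription factor genes Etv4, Etv5 and Egr1. They were taken from a named list out of 21627 protein-coding genes. For each gene all deposited peaks over the gene and 50 kb to each side, called its window, were collected from 22 libraries, 12 for H3K27ac, an acetylated histone H3 form carried by promoters and enhancers in use, and 10 for the transcription factor KLF4. On GRCm38 (mm10) the genes lie at chr7:144861386-144865245 (Fgf4), chr8:34807610-34819894 (Dusp4), chr10:99263231-99267489 (Dusp6), chr14:105891947-105896819 (Spry2), chr18:38586247-38601347 (Spry4), chr11:101769747-101785310 (Etv4), chr16:22381313-22439570 (Etv5) and chr18:34861207-34864956 (Egr1). Overlapping peaks of different libraries were joined into regions. A region counts for a library that has a peak anywhere in it, so it need not cover each of its bases in that library. The windows held 155 of 179334 H3K27ac regions and 103 of 85740 KLF4 regions.

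In this pathway FGF ligands bind receptor tyrosine kinases, which signal through RAS, RAF and MEK to ERK. Active ERK enters the nucleus and raises transcription of immediate-early and ETS family factors such as Egr1, Etv4 and Etv5. It also raises transcription of its own inhibitors, the dual-specificity phosphatases and Sprouty proteins, so these genes are widely read as targets and as negative feedback. In mouse embryonic stem cells (ESC), Fgf4 is made by the cells themselves and drives ERK towards differentiation, and an inhibitor of MEK in the medium holds the cells in the naive state.

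The mouse embryonic fibroblasts (MEF), from C57BL/6 x 129 mice, carried a doxycycline-inducible cassette for Oct4, Klf4, Sox2 and Myc (OKSM) at Col1a1 together with the reverse transactivator M2rtTA at ROSA26. KLF4 in the induced cells can thus come from the cassette. MEF were taken from their own medium with no doxycycline. Cells on days 3, 6 and 9 were in the medium used for ESC, with 15% serum and LIF at 1000 U/ml, to which doxycycline at 1 µg/ml and ascorbic acid at 50 µg/ml had been added. Day 3 cells were unsorted, while day 6 and day 9 cells had been sorted for the surface marker SSEA1, so the later stages hold a selected fraction. ESC were of the V6.5 line, kept on irradiated feeder cells in that medium without those additions, and all ESC libraries thus come from 1 line. H3K27ac was profiled in MEF (2 libraries), day 3 (3), day 6 (3), day 9 (2) and serum ESC (2). KLF4 was profiled with 2 libraries each at day 3, day 6, day 9, in serum ESC and in ESC with an added MEK inhibitor (1 µM) and GSK3 inhibitor (3 µM), the 2i medium. The design text calls the libraries of a group biological replicates but names no separate cultures or animals, so the p-values measure only the spread between these libraries.

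An H3K27ac list held 17493 to 88347 peaks and a KLF4 list 21129 to 34640. Read depth is not given, so the absence of a peak is not the absence of signal. The defining markers followed the labels: H3K27ac peaks within 2.5 kb of 5 fibroblast genes (Thy1, Col1a1, Col1a2, Twist1, Prrx1) covered 58.0 to 59.5 kb in MEF, with all 5 genes marked. They covered 13.5 to 22.1 kb at day 3, 1.03 to 4.71 kb at day 6, 2.95 to 4.65 kb at day 9 and 0.782 to 2.02 kb in ESC, where 2 or 3 of the 5 genes had a peak. Over 5 ESC genes (Pou5f1, Nanog, Sox2, Zfp42, Esrrb), coverage stayed at 0.288 to 1.34 kb from MEF to day 6, with 1 or 2 genes marked, then reached 9.12 to 10.1 kb at day 9 and 90.5 to 94.8 kb in ESC, with all 5 marked. The ESC were grown on feeder cells, which are fibroblasts, and their part in these values was not tested. In such bulk samples, fewer cells of a type and less signal per cell cannot be told apart.

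Promoter sequences were at hand for 4 of the 8 genes (RefSeq, GRCm38.p6, 250 bases before to 50 after a start), with 2 starts for Etv5. Those of Fgf4, Dusp6 and Etv5 are shown because they differ in how many libraries had a KLF4 peak over them, as described next. Capitals mark CACCC or its reverse complement GGGTG, the short core bound by KLF factors, read 5′ to 3′ on the gene's strand.

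Fgf4 promoter (chr7:144861136-144861435, plus strand): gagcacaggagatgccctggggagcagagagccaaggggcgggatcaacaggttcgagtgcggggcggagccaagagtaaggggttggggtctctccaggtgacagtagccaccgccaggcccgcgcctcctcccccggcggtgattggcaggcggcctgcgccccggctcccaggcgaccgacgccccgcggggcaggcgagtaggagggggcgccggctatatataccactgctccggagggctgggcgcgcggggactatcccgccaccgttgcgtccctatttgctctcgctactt

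Dusp6 promoter (chr10:99262981-99263280, plus strand): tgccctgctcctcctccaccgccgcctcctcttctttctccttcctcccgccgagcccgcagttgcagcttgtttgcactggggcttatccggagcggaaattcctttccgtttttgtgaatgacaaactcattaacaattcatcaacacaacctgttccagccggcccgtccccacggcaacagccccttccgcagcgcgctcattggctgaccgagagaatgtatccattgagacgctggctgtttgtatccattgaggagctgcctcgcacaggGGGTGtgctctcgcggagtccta

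Etv5 upper promoter (chr16:22439521-22439820, minus strand): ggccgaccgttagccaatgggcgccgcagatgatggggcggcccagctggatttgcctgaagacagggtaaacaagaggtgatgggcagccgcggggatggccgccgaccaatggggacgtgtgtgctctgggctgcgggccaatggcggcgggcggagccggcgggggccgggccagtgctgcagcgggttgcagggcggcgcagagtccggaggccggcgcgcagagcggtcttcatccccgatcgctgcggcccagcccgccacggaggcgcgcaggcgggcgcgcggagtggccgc

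Etv5 lower promoter (chr16:22438319-22438618, minus strand): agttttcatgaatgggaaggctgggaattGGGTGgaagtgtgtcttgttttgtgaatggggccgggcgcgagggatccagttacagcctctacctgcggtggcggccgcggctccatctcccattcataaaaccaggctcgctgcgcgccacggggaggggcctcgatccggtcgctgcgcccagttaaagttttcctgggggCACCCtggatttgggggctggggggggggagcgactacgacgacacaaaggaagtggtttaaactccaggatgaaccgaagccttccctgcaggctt

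The CACCC core occurred 1 time in the Dusp6 promoter and 2 times in the lower Etv5 promoter, and not in those of Fgf4, Spry2 or the upper start of Etv5. It was found in 57.7% of 32619 promoters of the same length. No listed promoter held GGGNGTGG, a longer KLF motif (in 17.7% of all promoters), the ETS motif CCGGAAG (8.92%), the TCF motif CTTTGAT (3.76%) or the STAT motif TTCNNNGAA (8.34%), each searched on both strands. The upper Etv5 promoter had a KLF4 peak in both libraries at day 3, day 6, day 9 and in serum ESC, and in 1 of 2 in 2i. The Fgf4 promoter had a KLF4 peak in 1, 1, 2, 1 and 2 libraries of these 5 groups in the same order. The lower Etv5 promoter had one in 1, 1, 0, 0 and 1. The promoters of Dusp6 and Spry2 each had a KLF4 peak in 1 of 2 libraries at day 3, day 6 and day 9 and in none of the 4 ESC libraries. A KLF4 list reached 14.9% to 26.9% of all promoters. H3K27ac lay over the Fgf4 promoter in neither MEF library and in all 10 later libraries, whereas the Spry2 and upper Etv5 promoters were marked in all 12. The Dusp6 promoter was marked in 2 of 3 libraries at day 6 and in all of the other stages. The lower Etv5 promoter was marked in 0 of 3 at day 3 and in all of the other stages. An H3K27ac list reached 22.2% to 42.6% of all promoters.

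The comparison of KLF4 in serum and 2i ESC asks how binding near ERK feedback genes stands in a medium that inhibits both MEK and GSK3. No library had either inhibitor alone, so the effects of the inhibitors cannot be told apart. No KLF4 peak lay in the Dusp6 window in either 2i list, a difference from serum that was not called. The Dusp4 and Etv4 windows also had 0 peaks in the 2i library of batch EA-3702, but 2 and 4 in that of DG-3012. Dusp6, the gene of a phosphatase that removes the activating phosphates from ERK, had 4 and 4 peaks at day 3, 4 and 2 at day 6, 4 and 3 at day 9, and 2 and 5 in serum ESC. Both 2i libraries had 0. The 2i libraries thus lay below all 8 others when every deposited peak was counted. On the scale log2(number of peaks + 1) the difference, 2i minus serum, was -2.09 ± 0.39 (SE). In limma its Benjamini-Hochberg adjusted p over 18857 gene windows was 0.134, above the threshold of 0.05, so the difference was not called. It was -2.89 with a pseudocount of 0.5, -1.29 in a window of 10 kb, -1.0 among peaks with a q-value of at most 0.01 and -0.88 by covered length, none of them called. With equal numbers of top peaks per list it was -1.79 and called (limma adjusted p = 0.0186). At the q-value limit of 0.01 the serum library of batch EA-2697 had no Dusp6 peak either, since both of its peaks missed that limit. A window with KLF4 peaks in both serum libraries and none in 2i was 1 of 8 here (Dusp6) and 1.53% of all, and the opposite was 0 of 8 and 1.4% of all. At least 2 peaks in each of the 8 other libraries and none in 2i, a rule set after these values were seen, was met by 0.0318% of windows.

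**Figure D1:**
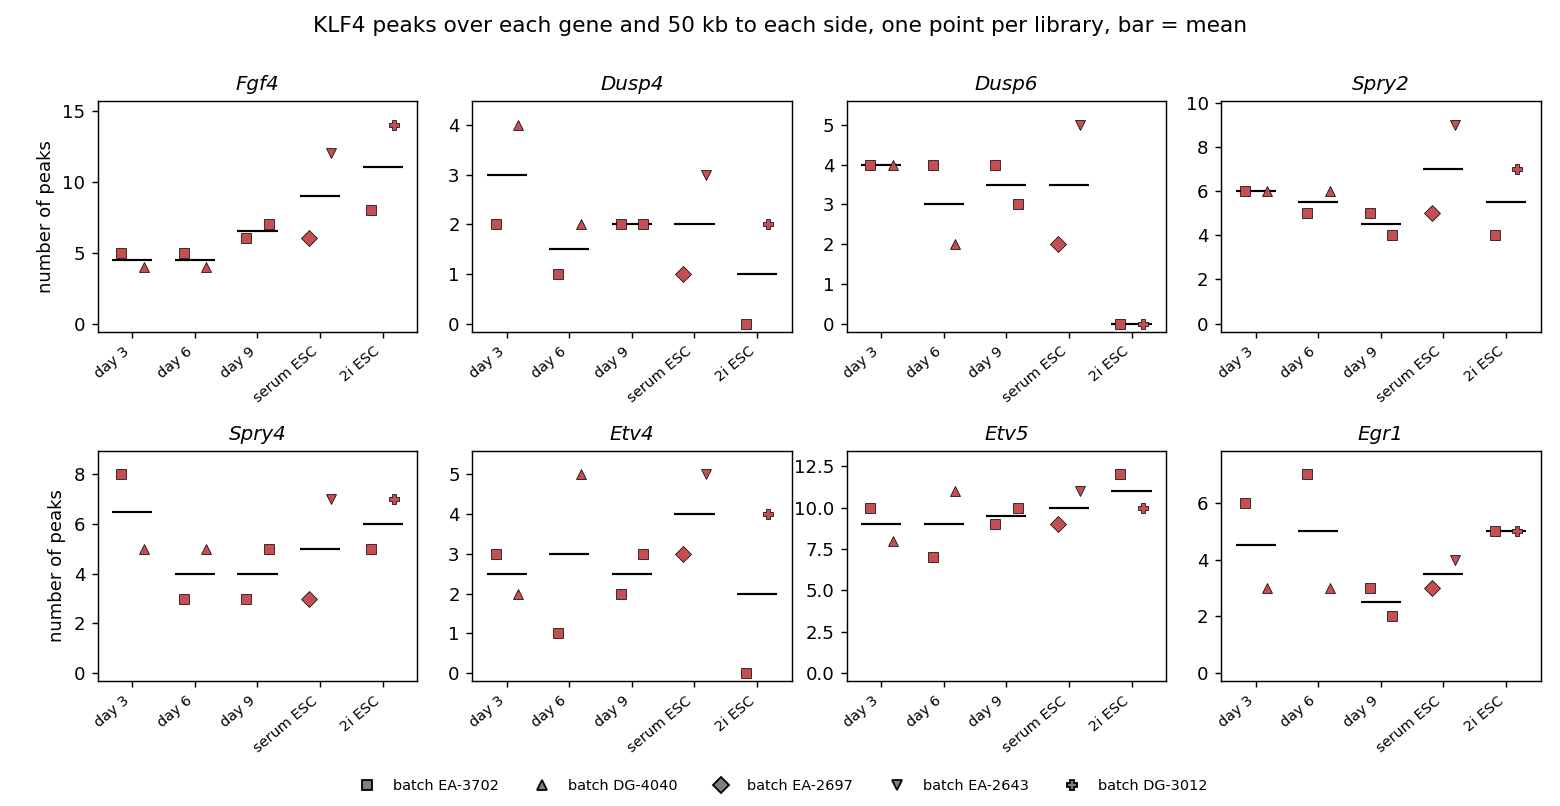
Number of KLF4 peaks in the window of each gene (vertical axis, linear) by stage (horizontal axis), 1 point per library, with symbols for the labelled batch and a bar at the group mean of 2 libraries. The Dusp6 panel shows 0 peaks in both 2i libraries against 2 to 5 in the other 8, while in the remaining panels except that of Egr1 the serum and 2i points overlap.

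Of the 8 members 0 were called between 2i and serum, where 0.785% of all tested windows were called (0.313% higher, 0.472% lower in 2i). That balance turned to 0.933% higher and 0.268% lower without serum EA-2643, and to 0.372% and 0.229% among peaks with a q-value of at most 0.01. With 2 libraries a side, a difference that misses the threshold does not show that the media act alike. At an unadjusted p under 0.05, Dusp6 was the single member, beside 1505 of all windows. Dusp4, the gene of a nuclear ERK phosphatase, had 1 and 3 peaks in serum and 0 and 2 in 2i, a difference of -0.71 ± 0.61. Spry2, a Sprouty inhibitor of receptor signalling, had 5 and 9 peaks in serum against 4 and 7 in 2i, and its relative Spry4 had 3 and 7 against 5 and 7. Etv4, an ETS factor gene, had 3 and 5 in serum and 0 and 4 in 2i, with a difference of -1.13 ± 0.83. Its relative Etv5 had 9 and 11 against 12 and 10. Fgf4 had 6 and 12 peaks in serum and 8 and 14 in 2i. For these 6 genes the 2 media overlapped. Egr1, a zinc finger factor of the immediate-early response, had 3 and 4 peaks in serum and 5 and 5 in 2i, so that its 2i libraries lay above both serum libraries, with a difference of 0.42 ± 0.41 and an adjusted p of 0.840. Peak numbers in 2i lay wholly below serum in 6.88% of all windows and wholly above in 9.46%.

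Each of the 4 ESC libraries came from a batch of its own (EA-2697 and EA-2643 for serum, EA-3702 and DG-3012 for 2i), and the effect of the medium and that of the batch cannot be told apart. The EA-3702 batch also holds day 3, day 6 and day 9 libraries, and those had 4, 4, 4 and 3 peaks at Dusp6 where its 2i library had 0. The peak names inside that 2i list say ESC without naming 2i, and it is taken as 2i from its sample label. Without it the difference rests on DG-3012 alone and was -2.09 with a limma adjusted p of 0.288, where the lone library is assumed to vary like those of the other groups.

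Region by region, 7 of the 103 KLF4 regions had a peak in both serum libraries and neither 2i library, a pattern found in 3.54% of the 72899 KLF4 regions within 50 kb of any protein-coding gene. Another 4 had a peak in both 2i libraries and neither serum library (2.38% of all), 14 had one in all 4 (11.9% of all), 32 had none in ESC and 46 were undecided. Regions of 1 gene share a window, and these counts have no test. They move with single libraries: the 7 became 22 without serum EA-2697 (12.9% of all regions) and 12 without 2i DG-3012 (6.71% of all). The 4 became 13 without 2i EA-3702 (16.4% of all), 10 without 2i DG-3012 (8.6%) and 9 without serum EA-2643 (7.18%). Among peaks with a q-value of at most 0.01 they were 3 and 1. Of the 7 serum regions, 2 belonged to Dusp6 and 1 each to Fgf4, Spry2, Spry4, Etv4 and Etv5. Of the 4 regions of 2i, 2 belonged to Fgf4 and 1 each to Spry4 and Etv5.

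The first Dusp6 region (chr10:99261196-99262053, mm10) lay 1.18 kb upstream of the gene and the second (chr10:99292972-99293519) 25.5 kb downstream of it. Each had a KLF4 peak in all 6 libraries of days 3, 6 and 9 and in both serum ESC libraries, and in neither 2i library. This pattern held for 2 of the 103 regions and 0.728% of all. In all 8 libraries without 2i a peak was found in 5328 of all regions, and 9.97% of those had none in either 2i library. At the upstream region the authors' fold enrichment was 9.45 and 2.77 at day 3, 4.25 and 6.22 at day 6, 2.93 and 3.18 at day 9, and 3.28 and 2.95 in serum ESC. The day 3 peak of batch EA-3702 ranked at the 92.8th percentile of its list by score, and the serum peak of batch EA-2697 at the 27.7th. At the downstream region the authors' fold was 3.88 and 3.62, then 6.03 and 5.82, then 6.09 and 6.46, and 3.86 and 3.04 in serum ESC. The peaks of serum library EA-2697 were weak in both regions, with a deposited −log10 q of 0.533 and 1.18, while those of EA-2643 had 3.67 and 4.42.

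**Figure D2:**
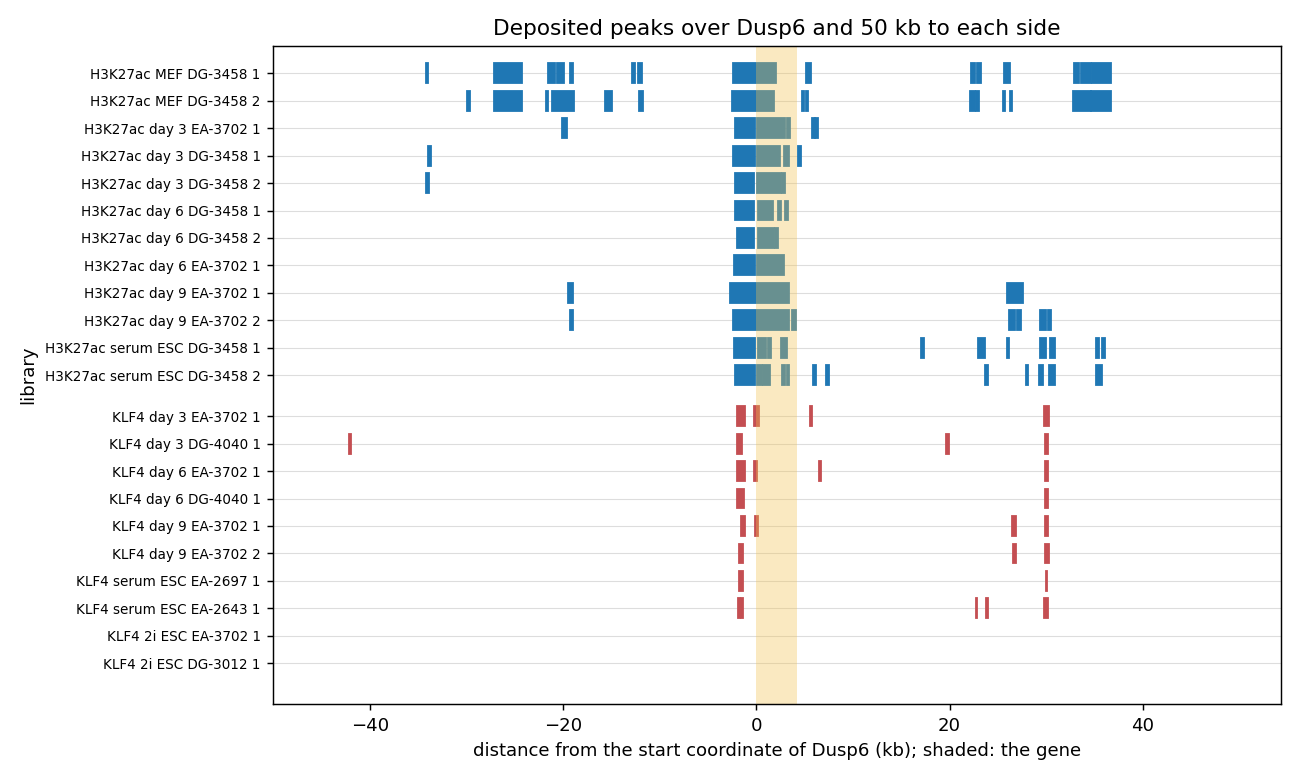
Deposited peaks around Dusp6, with the distance from the start of the gene in kb on the horizontal axis, 1 row per library (label, batch and number), H3K27ac in blue, KLF4 in red and the gene shaded. KLF4 peaks stand 1.18 kb upstream and 25.5 kb downstream of the gene in each of the 8 rows without 2i and in neither 2i row, and H3K27ac lies over part of the gene in all 12 rows but over its start coordinate in 4, those of MEF and day 9.

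H3K27ac overlapped the upstream Dusp6 region in all 12 libraries. At the downstream region it was found in 1 of 2 day 9 libraries and 1 of 2 ESC libraries, and in none of MEF, day 3 or day 6. No H3K27ac library in 2i was among the lists, so acetylation of Dusp6 in that medium was not analysed here. Other KLF4 regions of the Dusp6 window were seen in few libraries: 6 of its 10 were in 1 library each.

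At Fgf4 a region 3.14 kb upstream (chr7:144857758-144858244) had KLF4 peaks in 1 of 2 libraries at day 3, in both at days 6 and 9 and in serum ESC, and in neither of 2i. Its authors' fold was 3.69 and 5.88 in the serum libraries. H3K27ac overlapped it in both day 9 and both ESC libraries, 1 of 3 at day 3, and none of MEF or day 6. The 2 Fgf4 regions of 2i lay 38.6 kb and 9.67 kb upstream. The nearer of these was in 2i alone among all groups and weak in EA-3702, with a fold of 2.44. In Etv5 an intragenic region (chr16:22426739-22427218) had KLF4 peaks in 1 library of day 3, both of days 6 and 9 and both of serum ESC, and none in 2i. Another intragenic Etv5 region (chr16:22395162-22395521) was found only in the 2i libraries, where its folds were 5.37 and 5.06, and H3K27ac overlapped part of it in both serum ESC libraries and in none of the other 10. The regions of Spry2 at 3.94 kb and of Etv4 at 1.48 kb above the gene were seen in the serum libraries alone. Spry4 had a serum region 30.2 kb above the gene, also found in 1 day 3 library and weak in serum, at percentiles 27.7 and 0.306 of the lists. It also had a region of 2i 2.35 kb below the gene, found as well in 5 of the 6 libraries of days 3, 6 and 9. Its 2i peaks were among the weakest of their lists, at percentiles 3.88 and 13.6.

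**Figure D3:**
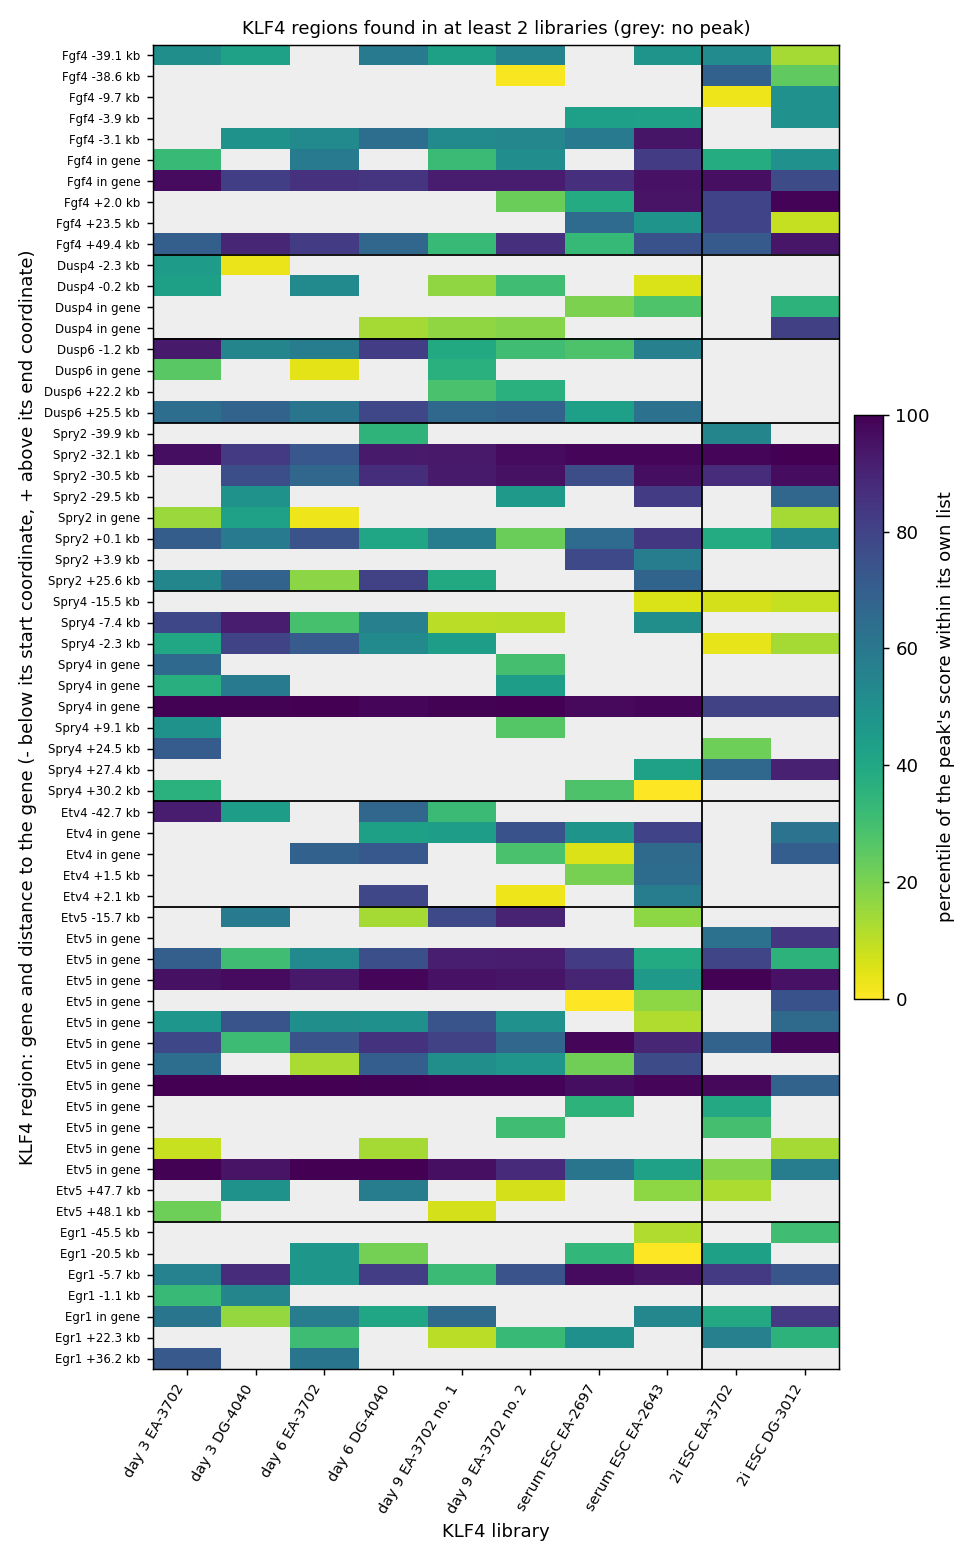
The 63 KLF4 regions of the 8 genes that were found in 2 or more libraries (rows, with their distance to the gene in kb) across the 10 KLF4 libraries (columns). Colour gives the percentile of the peak's score within its own list, grey means no peak, and the vertical line separates the 2i libraries. The Dusp6 rows at -1.2 and +25.5 kb are coloured in 8 columns and grey in both 2i columns, and 5 Etv5 rows are coloured in all 10.

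A set of KLF4 regions was found throughout. Of the 103 regions 11 had a peak in all 10 libraries, against 5.53% of all regions, and 40 were in 1 library only. Etv5 held 5 of the 11, Fgf4 and Spry2 2 each, Spry4 and Egr1 1 each, and Dusp4, Dusp6 and Etv4 none. One of the highly ranked ones was the Spry4 region chr18:38601192-38602587, around the upper end of the gene and the facing end of its neighbour Arhgap26. Its peaks stood at percentiles 97.5 to 99.7 of their lists in the 8 libraries without 2i and at 80.8 and 80.2 in 2i. The lists differ in length, so no change is read from these ranks. An intragenic Etv5 region (chr16:22428694-22429714) stood at 96.1 to 99.7 in the same 8 libraries and at 97.9 and 68.3 in 2i. The region around the upper Etv5 start (chr16:22439234-22440229) stood at 87.9 to 99.9 in the 6 libraries of days 3, 6 and 9, at 61.1 and 42.6 in serum ESC and at 18.3 and 57.7 in 2i. Within Fgf4, a region in the 3′ part of the gene (chr7:144863615-144864981) had peaks between percentiles 76.9 and 97.0 in all 10 libraries. The other Fgf4 region in all 10 lay 49.4 kb beyond the gene, at the start coordinate of LTO1. Spry2 had its strongest shared region 32.1 kb beyond its 3′ end (chr14:105858783-105859834), between percentiles 72.7 and 99.8, and a second one 93 bp upstream of its start. The Egr1 region lay 5.69 kb below the gene, and another around the lower end of Egr1 (chr18:34860134-34861652) was in 8 libraries. The most shared Dusp4 region (chr8:34806706-34807433), 177 bp below the gene, was in 5 libraries, of which none was 2i. Etv4 had 2 regions in 6 libraries each, at chr11:101772401-101772906 within the gene and at chr11:101784261-101785658 around its upper end, and both were absent at day 3.

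By peak number, 0 of 8 members were called over day 3, day 6, day 9 and serum ESC (limma F test; 2.87% of 18857 windows called), and 0 had an unadjusted p under 0.05, which 3850 of all windows had. The lowest was that of Fgf4. Fgf4 had 5 and 4 peaks at day 3, 5 and 4 at day 6, 6 and 7 at day 9, and 6 and 12 in serum ESC. Etv5 kept 7 to 12 peaks throughout. Spry2 had 6 and 6 at day 3, 5 and 6 at day 6, and 5 and 4 at day 9, and Spry4 had 8 and 5, 3 and 5, and 3 and 5. Dusp4 had 2 and 4, 1 and 2, and 2 and 2. Etv4 had 3 and 2, 1 and 5, and 2 and 3. Egr1 had 6 and 3, 7 and 3, and 3 and 2. In the serum ESC minus day 3 contrast, added after seeing the data, Fgf4 differed by 0.80 ± 0.36 (limma adjusted p = 0.269). It differed by 0.97 (limma adjusted p = 0.0316) when numbers were scaled to the total of each list. The unscaled difference rests largely on serum EA-2643, which had 12 peaks against 6 in EA-2697. Of all windows 4.29% were called (1.97% higher, 2.32% lower), and 9.12% after scaling (5.98% higher, 3.13% lower). By covered length the balance was the opposite, at 0.658% higher and 5.57% lower. Between neighbouring stages 0 of 8 members were called too, beside 0.748% of windows for day 6 minus day 3 (0.17% higher, 0.578% lower), 0.419% for day 9 minus day 6 (0.323% higher, 0.0955% lower) and 2.17% for serum ESC minus day 9 (1.34% higher, 0.833% lower). With equal numbers of top peaks, 0.758% were higher and 0.401% lower for day 6 minus day 3. With batch as a term 1.98% were called for day 6 minus day 3 (0.564% higher, 1.42% lower). For day 9 minus day 6 that fit called 2.23% (1.17% higher, 1.06% lower). After scaling to the median total, limma called 0 windows for day 6 minus day 3 (2316 at an unadjusted p under 0.05) and 0 for day 9 minus day 6 (1677). Leaving out day 9 library 1 or 2 also left 0 calls for day 9 minus day 6 (835 and 837 unadjusted). For serum ESC minus day 9 the share was 0.825% without day 9 library 1 and 0.826% without library 2, and without serum EA-2643 it was 0.697% higher and 1.41% lower.

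KLF4 regions of the 8 genes lay mostly where H3K27ac was found in some library: 90 of 103 overlapped an H3K27ac peak of at least 1 library, against 68.1% of all KLF4 regions. By stage, 25 overlapped a peak in every MEF library (30.3% of all regions), 35 in every day 3 library (22.4%), 24 in every day 6 library (14.5%), 66 in every day 9 library (39.6%) and 55 in both serum ESC libraries (38.6%). All 11 regions present in all 10 KLF4 libraries overlapped H3K27ac in at least 1 library. The same share was not taken over all regions present in all 10 libraries, so nothing is read from this count. The Spry2 region at 32.1 kb overlapped H3K27ac in neither MEF library, all 3 at day 3, 2 of 3 at day 6 and all later ones. A Spry2 region 25.6 kb upstream of the start (chr14:105922440-105923053) went the other way: H3K27ac was there in both MEF and all 3 day 3 libraries and none later, and KLF4 in both libraries of days 3 and 6, 1 at day 9, 1 in serum ESC and none in 2i.

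Between MEF and serum ESC, H3K27ac rose at Fgf4, Etv5 and Spry2 and fell at Dusp6 and Egr1. In the fit across 5 stages all 8 members were called, but so were 98.7% of 19774 windows, and nothing is read from that count. Between MEF and ESC 5 of 8 were called, 3 higher and 2 lower in ESC, beside 59.6% of all windows (26.8% higher, 32.8% lower), a share near that of the members. With covered lengths scaled to each list's total the split over all windows was 37.7% higher and 26.3% lower, and the median moved from -0.10 to 0.15. The 5 members kept direction and call after scaling, at 3.55 for Fgf4, 2.03 for Etv5, 0.92 for Spry2, -0.76 for Dusp6 and -1.04 for Egr1, and Spry4 was then called too, at 1.13. MEF and ESC libraries all came from batch DG-3458.

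Fgf4 rose most. H3K27ac in its window covered 0.682 and 0.685 kb in MEF, 4.71, 4.98 and 4.37 kb at day 3, 2.31, 2.91 and 3.83 kb at day 6, 9.56 and 8.66 kb at day 9, and 22.4 and 21.6 kb in ESC. MEF were below every later library and ESC above every earlier one. ESC minus MEF was 3.77 ± 0.19 on the scale log2(covered kb + 1), with an adjusted p of 3.8e-08 in limma. In MEF the only region was the one 49.3 kb away at LTO1, while the region over the gene (chr7:144852747-144869604) was absent in MEF and present in all 10 later libraries. Fgf3 and Fgf15 also lie in this window, so its coverage cannot be assigned to Fgf4 alone.

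**Figure D4:**
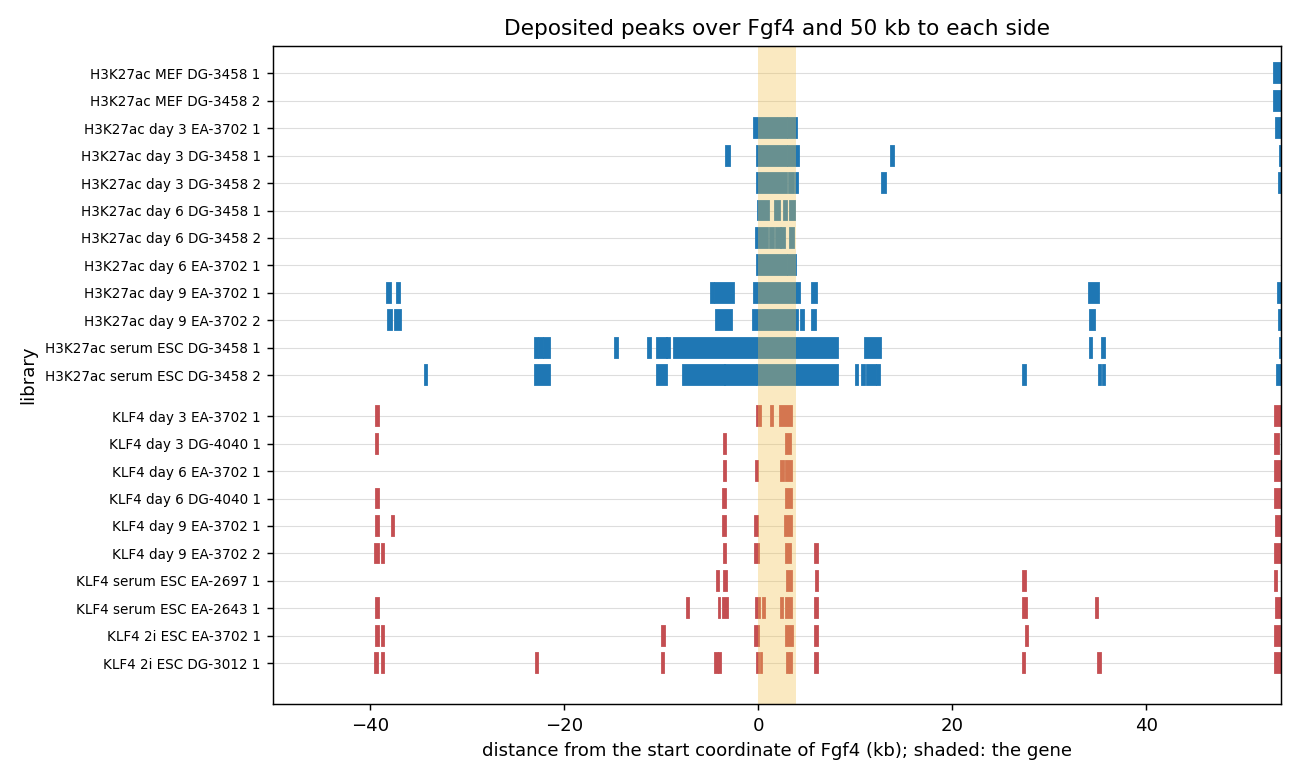
Deposited peaks around Fgf4, with the distance from the start of the gene in kb on the horizontal axis, 1 row per library, H3K27ac in blue, KLF4 in red and the gene shaded. Blue blocks are missing over the gene in both MEF rows, reach it from day 3 on and are widest in the ESC rows, and a KLF4 block in the 3′ part of the gene stands in all 10 KLF4 rows.

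Etv5 also rose. Its window was covered over 9.55 and 10.8 kb in MEF, 13.5, 11.5 and 6.82 kb at day 3, 7.63, 4.63 and 10.8 kb at day 6, 29.5 and 30.02 kb at day 9, and 37.6 and 35.7 kb in ESC. Day 9 and ESC stood above all earlier libraries, which overlapped among themselves. ESC minus MEF was 1.76 ± 0.35 (adjusted p = 0.00147). Of its 23 H3K27ac regions 3 were found in all 12 libraries, all overlapping the gene, 1 of them over the upper start (chr16:22435844-22441359). Part of Dgkg also lies in the Etv5 window.

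Spry2 was covered over 10.2 and 10.6 kb in MEF and 17.4 and 15.7 kb in ESC, with 6.47 to 9.38 kb at day 3, 4.06 to 6.22 kb at day 6 and 12.5 and 12.6 kb at day 9. Its start lay under a region found in all 12 libraries (chr14:105892334-105901032). The difference of 0.62 ± 0.22 had an adjusted p of 0.0290. The call was lost on leaving out either MEF or either ESC library, with adjusted p values up to 0.152, and in a window of 10 kb the difference was -0.15.

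Dusp6 and Egr1 fell. Dusp6 was covered over 15.4 and 16.9 kb in MEF and 6.87 and 6.66 kb in ESC, and ran at 5.19 to 6.59 kb at day 3, 3.73 to 4.98 kb at day 6 and 8.30 and 8.53 kb at day 9. No later library reached MEF. ESC minus MEF was -1.14 ± 0.17 (adjusted p = 0.00018). The joined region around its start (chr10:99260518-99266723) had a peak in all 12 libraries. The start coordinate itself lay under a peak in both MEF and both day 9 libraries and in none of the other 8. With a window of 10 kb the difference was -0.19 and was not called. Egr1 was covered over 9.32 and 8.69 kb in MEF, 5.14, 3.95 and 4.13 kb at day 3, 1.97, 1.90 and 3.26 kb at day 6, 8.38 and 7.38 kb at day 9, and 2.53 and 2.74 kb in ESC. ESC minus MEF was -1.46 ± 0.21 (adjusted p = 0.00017). The Egr1 window also holds Kdm3b, Reep2 and Etf1, and a joined region around the Egr1 start (chr18:34858854-34863187) had a peak in all 12 libraries, with the start coordinate under a peak in 9.

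The remaining 3 were not called between MEF and ESC in the fit over all 12 libraries. Dusp4 was covered over 2.52 and 3.07 kb in MEF and 3.12 and 2.96 kb in ESC, but over 6.00 to 7.53 kb at day 3, 5.42 to 6.46 kb at day 6 and 8.74 to 9.91 kb at day 9. Every library of days 3, 6 and 9 thus lay above all MEF and ESC libraries. Its ESC minus MEF difference was 0.095 ± 0.17, but 0.66 and called in a window of 10 kb, and -0.99 and called with equal numbers of top peaks. The joined region around its lower end (chr8:34804463-34811085) had a peak in all 12 libraries, and the end itself lay under one in 11. Part of Tnks also lies in the Dusp4 window. Etv4 went the other way, with 10.6 and 8.99 kb in MEF, 1.58 to 3.91 kb at day 3, 1.14 to 1.29 kb at day 6, 6.87 and 8.26 kb at day 9 and 10.5 and 10.2 kb in ESC. Its ESC minus MEF difference was 0.077 ± 0.27, and 1.09 and called in a window of 10 kb. The joined region around its upper end (chr11:101783433-101789059) had a peak in 10 libraries, missing in 2 of day 3, and the end itself lay under one in 6, all of MEF, day 9 and ESC. The Etv4 window also holds Dhx8, so its coverage cannot be assigned to Etv4 alone. Both day 3 libraries of batch DG-3458 had 0 kb covered within 10 kb of Etv4. Spry4 was covered over 6.84 and 6.88 kb in MEF, 11.8 to 14.3 kb at day 3, 17.5 and 17.1 kb at day 9, and 13.0 and 13.8 kb in ESC. At day 6 it had 2.79 and 2.98 kb in batch DG-3458 and 8.95 kb in EA-3702. Its ESC minus MEF difference was 0.87 ± 0.38 (adjusted p = 0.0705), but it was called at the same 0.87 in batch DG-3458 alone, which holds all MEF and ESC libraries (adjusted p = 0.00026, and 0.00054 with the replicate block), with batch as a term (0.0152) and without that day 6 library of EA-3702 (0.00011). With equal numbers of top peaks the difference was -1.24 and called. Its joined region around the upper end (chr18:38593709-38604209) had a peak in all 12 libraries, and the end itself lay under one in 5. Part of Arhgap26 also lies in the Spry4 window.

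**Figure D5:**
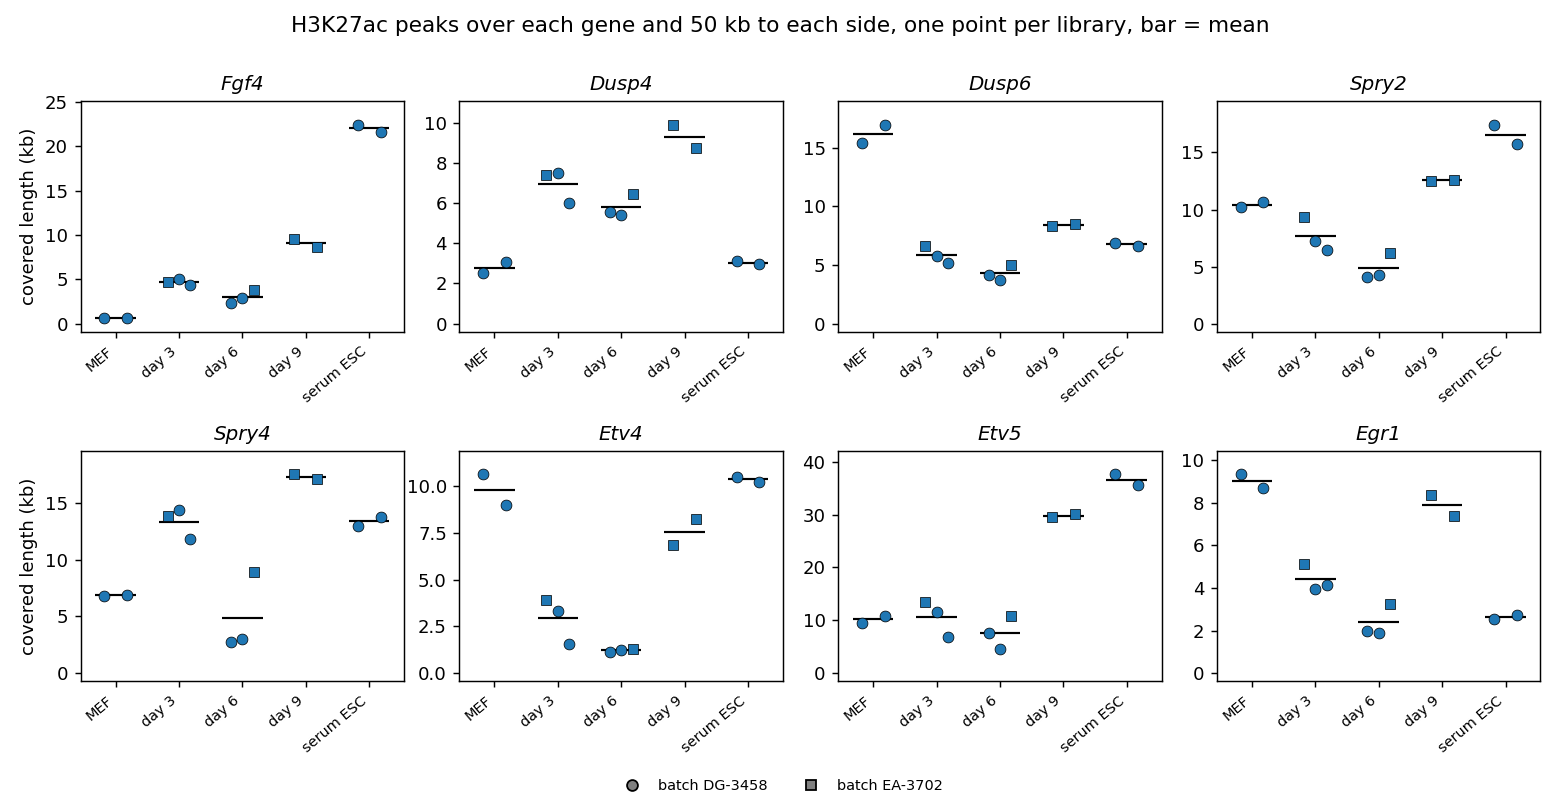
Length covered by H3K27ac peaks in the window of each gene in kb (vertical axis, linear, own scale per panel) by stage (horizontal axis), 1 point per library, with symbols for the labelled batch and a bar at the mean of the 2 or 3 libraries. Fgf4 runs from 0.682 kb in MEF to 22.4 kb in ESC, Dusp6 is highest in MEF, Dusp4 is highest on days 3, 6 and 9, and Etv4 is lowest at day 6.

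Steps between neighbouring stages were read from the same fit, as contrasts added after seeing the data. The lists differ in length between stages, and the median over all windows was -0.87 for day 3 minus MEF, -0.45 for day 6 minus day 3, 1.20 for day 9 minus day 6 and 0.11 for ESC minus day 9. From MEF to day 3, 69.1% of all windows were called: 1.82% of all windows rose and 67.2% fell. Scaled to list totals, 28.9% rose and 19.1% fell. Against that, Fgf4 (1.76 ± 0.17), Dusp4 (1.07 ± 0.15) and Spry4 (0.86 ± 0.35, adjusted p = 0.0462) rose. All 3 also rose after scaling, by 2.51, 2.16 and 2.13, but for Spry4 the adjusted p was 0.162 among peaks with a q-value of at most 0.01 0.298 with equal numbers of top peaks, 0.0695 with no filter and 0.057 with a pseudocount of 0.5. Dusp6 (-1.33), Etv4 (-1.51) and Egr1 (-0.89) fell in the unscaled fit. After scaling they gave -0.019, -0.31 and 0.35, of which none was called, and the direction of Egr1 turned.

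From day 3 to day 6, 5 members fell (Fgf4, Spry2, Spry4, Etv4 and Egr1). Of all windows 41% were called, 40.7% lower and 0.278% higher. After scaling 36.2% were higher and 14.8% lower, and Fgf4 (0.55), Dusp4 (0.96), Dusp6 (0.77), Spry2 (0.56) and Etv5 (0.75) were called higher. From day 6 to day 9 all 8 rose, beside 87.4% of all windows. After scaling 19.2% were higher and 25.8% lower, and Dusp4 (-1.21), Dusp6 (-0.92) and Spry2 (-0.54) were called lower. The direction of these 2 steps thus depends on the scale.

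From day 9 to ESC 3 members were called: Fgf4 rose by 1.19 ± 0.19, Dusp4 fell by 1.35 ± 0.17 and Egr1 fell by 1.29 ± 0.21. Over all windows 45% were called, 28.5% rose and 16.5% fell, and after scaling 23.2% rose and 30.8% fell. The same 3 kept their direction and call after scaling, at 0.82, -1.59 and -1.52. The day 9 libraries all came from batch EA-3702 and the ESC libraries from DG-3458. With batch as a term, the 3 differences were 1.41, -1.19 and -0.88 and stayed called. That term rests on the day 3 and day 6 libraries that both batches hold. Spry2 (0.82) and Etv5 (0.95) were called higher as well in that fit. It called 60.2% of all windows, 50.5% higher and 9.67% lower.

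Of 45 further genes of the pathway, 44 had windows that could be tested for H3K27ac. Between MEF and ESC 12 were higher and 16 lower in ESC, with a median of -0.080. Over all windows the median was -0.10, with 26.8% higher and 32.8% lower. By role, 2 of 4 ligands were higher and 2 lower. Among the higher ones was Fgf15, which lies in the Fgf4 window, so the windows of these genes share peaks. Of the 4 receptors 1 was higher and 2 lower, and of 15 adaptors and kinases 4 were higher and 3 lower. Of 10 tested further feedback inhibitors 3 were higher and 4 lower, and of 11 ETS and immediate-early factors 2 were higher and 5 lower. The ends of the range were the RAS gene Nras at 1.73 ± 0.22 and the ligand gene Fgf5 at -3.51 ± 0.11. After scaling 20 were higher and 16 lower, beside 37.7% and 26.3% of all windows. From MEF to day 3, 0 of the 44 rose and 34 fell, beside 1.82% and 67.2% of all windows. After scaling 15 rose and 1 fell, beside 28.9% and 19.1%, so the direction depends on the scale.

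For KLF4, 43 of the 45 were tested. Between 2i and serum 0 were called in limma, beside 0.785% of all windows, and the ends were the kinase gene Braf at 1.00 ± 0.49 and the receptor gene Fgfr2 at -1.21 ± 0.44. Over the stages 1 was called, the immediate-early factor Myc (adjusted p = 0.0218), with 2.29 for serum ESC minus day 9. All windows were called at 2.87%, so 1 of 43 is near the background. Myc is also carried by the reprogramming cassette, and the value concerns the window of the native gene.

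The window whose H3K27ac coverage followed each member most closely over the 12 libraries (Pearson r of log2 values, a description over libraries that share stage, batch and list length) was L1td1 for Fgf4 (0.983), Fam174b for Dusp4 (0.953), Nes for Dusp6 (0.994) and Trim38 for Spry2 (0.997). For Spry4 it was Mrm1 (0.985), for Etv4 R3hdm2 (0.993), for Etv5 Tgif2 (0.989) and for Egr1 Spon1 (0.985). An r above 0.95 was reached by 1598 windows for Spry2, 1008 for Dusp6 and 1161 for Etv4, but by 16 for Fgf4 and 1 for Dusp4.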

How the data were processed

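H3K27ac (12) and KLF4 (10) ChIP-seq libraries were used, and 13 input libraries were not analysed here. Per the submitters' processing notes, cutadapt 1.8.1, Bowtie2 2.2.5, MACS2 2.1.1 and deepTools 2.3.6 were used with build mm10, and their settings are not given in the sources used here. The authors deposited 1 peak list per library, which gives each peak a score, its fold over background (a ratio) and its p-value and q-value as −log10. In these lists no −log10 p was under 2.00. These values were used only to rank, filter or describe peaks within a list. No read counts or depths are given.

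Windows came from RefSeq gene coordinates (GRCm38.p6) with 50 kb to each side. Peaks sharing at least 1 bp were joined. Covered kb (H3K27ac) and peak numbers (KLF4) per window were tested in limma 3.58.1 (R 4.3.3, trend) on log2(value + 1), over windows with a peak in at least 2 libraries, with Benjamini-Hochberg adjustment and a threshold of 0.05. Named were all 8 members, their most shared, nearest and medium-bound regions, the most similar window, and listed pathway genes that were called in 2i or lay at the ends of the range. Myc, Spry2's region at 25.6 kb and the steps between stages were chosen after their values were seen. The members and lists were chosen with earlier results of these data known. The CACCC core was added after the other 4 motifs gave no match. On simulated data the fit missed most of the KLF4 differences planted between 2i and serum. It missed fewer of those planted between MEF and ESC for H3K27ac. Alternatives were a window of 10 kb, equal numbers of top peaks (17493 and 21129), a q-value limit of 0.01, scaling to list totals, a pseudocount of 0.5, no filter, KLF4 covered length, peaks of 200 bp, a batch term, a replicate block and leaving out each library.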

Additional observations from a re-analysis of the deposited data

How the results depend on the processing

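Between MEF and ESC, Fgf4 and Etv5 were called higher and Egr1 lower for H3K27ac under all 21 alternatives, and Dusp6 was called lower under 20 of them. Over the 21 alternatives the difference ran from -2.89 to -1.04 for Egr1 and from -1.65 to -0.19 for Dusp6. With 1 library left out it ran from -1.51 to -1.42 for Egr1 and from -1.21 to -1.08 for Dusp6. For Fgf4 it then ran from 3.75 to 3.80, for Etv5 from 1.68 to 1.83 and for Spry2 from 0.55 to 0.69. Some differences turned sign: in a window of 10 kb Spry2 stood at -0.15 (0.62 and called in 50 kb), with equal numbers of top peaks Dusp4 at -0.99 (adjusted p = 0.00302) and Spry4 at -1.24 (0.0202), and at a q-value of at most 0.01 Dusp4 at -0.027 and Etv4 at -0.13. With 1 library left out Dusp4 ran from -0.011 to 0.20 (negative without MEF library 1) and Etv4 from -0.034 to 0.19 (negative without MEF library 2). Over all windows, H3K27ac calls from day 9 to ESC went from 8893 to 5502 without ESC library 1 and 5602 without library 2.

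For KLF4 in 2i minus serum, 1 member was called with equal numbers of top peaks, Dusp6 at -1.79 (adjusted p = 0.0186). Over all 17 alternatives its difference ran from -2.89 to -0.88 (adjusted p from 0.0186 to 0.997), and with 1 library left out from -2.59 to -1.59 (0.0626 to 0.326). At a q-value of at most 0.01 Fgf4 gave -0.16 and Dusp4 0.50, and by covered length Spry2 gave 0.049 and Spry4 -0.14. With 1 library left out Fgf4 ran from -0.16 to 0.73, Spry4 from -0.21 to 0.79, Etv5 from -0.0050 to 0.26, Spry2 from -0.66 to 0.076, Dusp4 from -1.50 to 0.085 and Etv4 from -2.29 to 0.029. None of these was called. Signs turned without serum EA-2697 (Fgf4, Spry4, Etv5), serum EA-2643 (Spry2), 2i EA-3702 (Dusp4, Spry2, Etv4) or 2i DG-3012 (Fgf4, -0.084). Serum regions numbered 3 at a q-value of at most 0.01 (3.3% of all regions) and 8 to 22 with a library left out, the most without serum EA-2697 (12.9% of all). Regions of 2i numbered 1 at that limit (1.99% of all), 1 with equal numbers of top peaks (3.14%), and 5 to 13 with a library left out, the most without 2i EA-3702 (16.4%). The causes were not tested. Over all windows, 148 were called between 2i and serum, 298 with 10 kb, 342 with equal top peaks, 0 after scaling and 1 by covered length. Over the stages 541 were called, 912 with 10 kb, 1386 with equal top peaks and 866 after scaling. Without serum EA-2643, 224 were called between 2i and serum, with 174 higher and 50 lower against 59 and 89 in all libraries. Over the KLF4 stages 354 and 352 were called without day 9 library 1 or 2.

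The numbers of batch DG-3458 do not pair its libraries (correlations of deviations from -0.0094 to 0.0592). With the replicate block 6 members were called between MEF and ESC, and 6 in the same libraries without it, a setting added after seeing the data. Over all windows these were 14861 and 14682. KLF4 groups share fewer than 2 numbers, so they have no such fit. List length, in place of depth, limits every value.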

Other observations

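Dusp6 was 1 of 6 gene windows among 18857 (0.0318%) that had at least 2 KLF4 peaks in each of the 8 libraries without 2i and none in either 2i library, by a rule set after the Dusp6 values were seen. The other 5 were Pard3b, Pacrgl, Clec2g, Ereg and Epgn. Ereg and Epgn, genes of ligands of the epidermal growth factor family, lie side by side on chromosome 5 (91074617 to 91093649 and 91027517 to 91035212), so their windows share peaks and are not independent.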
